A study of Caenorhabditis elegans with 2 samples.

Results

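The splicing factor and snRNP protein genes of Caenorhabditis elegans were examined for binding of LIN-38 at their promoters. All protein-coding genes of the Ensembl WBcel235 annotation whose symbol starts with snr-, snrp-, lsm-, prp-, rsp-, uaf-, sfa- or sap- were taken, which gave 45 genes out of 19973 on the nuclear chromosomes. The rule uses symbols alone and no measured value, but it was chosen with earlier results of these data known. They comprise 14 Sm and LSm genes (snr-, lsm-), 8 SR protein genes (rsp-), 13 PRP genes (prp-) and 10 others (snrp-, uaf-, sfa-, sap-). LIN-38 belongs to the synMuv A group, nuclear regulators known from their part in vulval fate.

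The data are chromatin immunoprecipitation with sequencing (ChIP-seq) from 1 group of 2 biological replicates, both of strain RW12236. In its allele st12236 the endogenous lin-38 gene on chromosome II carries a CRISPR insertion of TY1, EGFP and 3xFLAG tags, and LIN-38 was pulled down through the EGFP. The animals were L4 larvae, 48 hours old, synchronised as starved L1 larvae after bleaching. Chromatin came from whole animals, so the cells in which LIN-38 sits at a given promoter cannot be told apart. Control libraries were not analysed here.

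Splicing removes introns from pre-mRNA in the spliceosome, which is built from small nuclear ribonucleoproteins (snRNPs). Each snRNP holds a small nuclear RNA and a ring of Sm proteins, or of LSm proteins in the case of U6, together with proteins of its own. SR proteins bind exons and help recruit the snRNPs, and U2AF and SF1 recognise the end of the intron. PRP proteins, first defined by yeast mutants in pre-mRNA processing, assemble, activate and remodel the complex. In this worm the same machinery also joins a short leader RNA to the start of many mRNAs, and many genes are transcribed together in operons.

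The peak summit is the position of highest signal in a peak, and a promoter summit is one in the conservative peak list that falls inside a window around an annotated 5′ end of the gene. The window runs 500 bp upstream and 200 bp downstream, and each annotated 5′ end has its own. The conservative list was made by the authors from both replicates and held 5431 peaks, of which 5405 were nuclear. The signal value given for a peak below is the authors' own. Its scaling is not stated, so it ranks and describes peaks. Depth is unknown, because the peak lists hold no read counts.

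Sequence is shown for the summit with the highest signal value in each of the 4 classes, and for the next of the class where that summit also lay in another gene's promoter window. Summits on 1 chromosome, whose sequence is not shown here, were passed over. Each run is 100 bp of WBcel235 (ce11) around the summit, written 5′ to 3′ on the strand of the named gene. Capitals mark matches, on either strand, to any of the 11 short patterns whose counts are given with the sequence results. The runs lie at chrIV:17087611-17087710 for snr-1, chrV:11980033-11980132 for snr-4, chrIII:12688167-12688266 for rsp-3, chrII:11453145-11453244 for rsp-1, chrIII:9521856-9521955 for prp-40, chrIV:9884405-9884504 for prp-18 and chrX:11299702-11299801 for snrp-40.1. The genes snr-4, rsp-3, prp-18 and snrp-40.1 are on the minus strand.
snr-1: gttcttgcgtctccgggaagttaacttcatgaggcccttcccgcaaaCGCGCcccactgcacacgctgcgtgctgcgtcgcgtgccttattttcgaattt
snr-4: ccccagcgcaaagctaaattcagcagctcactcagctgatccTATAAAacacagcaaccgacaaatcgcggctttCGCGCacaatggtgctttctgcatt
rsp-3: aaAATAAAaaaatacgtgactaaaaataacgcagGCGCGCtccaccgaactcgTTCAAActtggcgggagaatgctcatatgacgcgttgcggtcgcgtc
rsp-1: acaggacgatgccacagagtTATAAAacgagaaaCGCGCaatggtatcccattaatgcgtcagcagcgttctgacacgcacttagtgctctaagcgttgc
prp-40: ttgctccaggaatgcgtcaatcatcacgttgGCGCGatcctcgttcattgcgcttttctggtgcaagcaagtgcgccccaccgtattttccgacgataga
prp-18: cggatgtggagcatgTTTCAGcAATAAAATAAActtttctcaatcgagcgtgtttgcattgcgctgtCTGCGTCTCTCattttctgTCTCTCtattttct
snrp-40.1: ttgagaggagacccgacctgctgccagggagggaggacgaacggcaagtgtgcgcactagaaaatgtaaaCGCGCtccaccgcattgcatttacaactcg
The pattern GCGCG, or CGCGC when read on the other strand, is in 6 of these 7 runs, which were chosen for high signal. In promoter summits of other genes it was in 46.3% at or above the median signal value and 22.9% below it. No share was taken for peaks as high as these. The run of prp-18 has no GCGCG but holds CTGCGTCT, GAGAGA, as well as TTTCAG and AATAAA.

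Across the family, 31 of the 45 genes (68.9%) had a promoter summit, against 14.6% of all protein-coding genes. By class these were 12 of 14 Sm and LSm genes (85.7%), 6 of 8 SR genes (75%), 6 of 13 PRP genes (46.2%) and 7 of 10 others (70.0%). The genes are not replicates of a condition and some share a summit, so these counts stand side by side without a test. The 31 genes drew on 33 distinct summits, since lsm-3, prp-21 and prp-40 each had more than 1. Taking the highest summit of each gene, the median signal value was 396, and over all protein-coding genes with a promoter summit it was 336. Of the 31 genes, 13 (41.9%) had a summit among the highest 25% of all nuclear peaks, close to the 40.0% of all genes with a promoter summit.

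**Figure D1:**
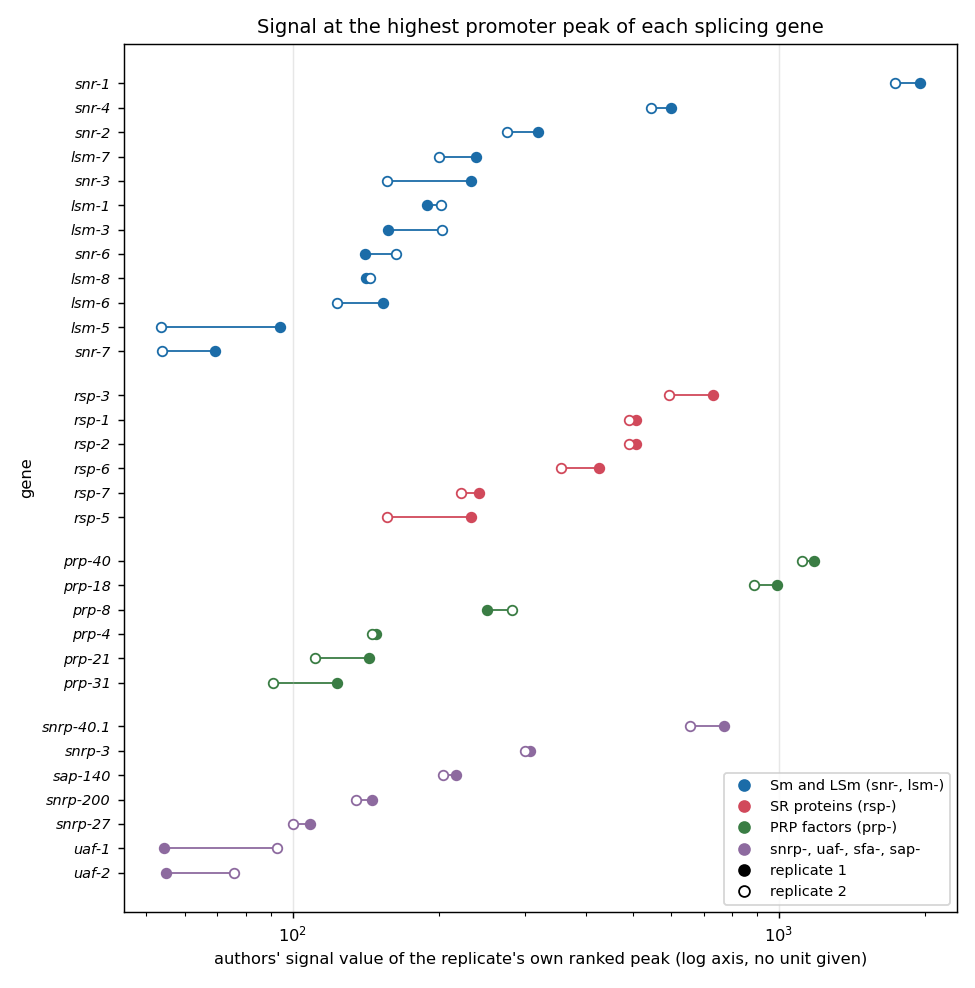
Authors' signal value (log axis) of the highest promoter peak of each of the 31 genes with a promoter summit, in replicate 1 (filled) and replicate 2 (open), by class; a line joins both replicates of a gene. snr-1 lies highest at 1945 and 1733, and uaf-1, uaf-2, lsm-5 and snr-7 reach no higher than 93.95 in either replicate.

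Sm proteins form the ring around U1, U2, U4 and U5 RNA. The gene snr-1, for the D3 subunit, had the highest peak of the whole family, at 3693 and rank 101 among the nuclear peaks. In the replicates' own ranked lists it had 1945 (replicate 1) and 1733 (replicate 2), and the pairs of values below are in the same order. Its summit lay 388 bp upstream of snr-1 and 223 bp upstream of snx-13, a sorting nexin gene on the opposite strand. Next was snr-4, for the D2 subunit, at 1169 (599 and 545), with its summit 360 bp upstream. That summit was also 35 bp from T11F9.15, an annotated small nuclear RNA (snRNA) gene at 11980118 to 11980261 on chromosome V, so the peak cannot be credited to snr-4 alone. It was the only one of the 31 genes with its highest or any other promoter summit within 200 bp of a tRNA, snRNA, snoRNA, rRNA or microRNA gene, and 3.55% of all promoter summits lay that near to one.

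Lower peaks marked the other Sm genes. At snr-2, for subunit B, the value was 587 (319.7 and 275), and at snr-3 it was 396 (232 and 156). At snr-6, for subunit E, it was 302 (141 and 163). The peak at snr-7, for subunit G, was the lowest among the highest peaks of each gene, at 124 (69.1 and 53.9), and overlapped no peak in the thresholded list of either replicate. Its summit lay 18 bp upstream of Y71F9B.6, on the opposite strand, and 272 bp upstream of snr-7. snr-5, for subunit F, had its nearest summit 6332 bp away. The ranked lists, which hold candidate peaks before any threshold, gave snr-5 a promoter candidate with a signal value of 30.03 and a score of 42. That score is the authors' scaled IDR, a measure of repeatability on which listed peaks reach at least 830 of 1000.

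LSm proteins form the ring of U6, with lsm-8 in the nuclear form, and LSm1 in its place in a cytoplasmic form that takes part in mRNA decay. Peaks were of middle height at lsm-7 (419.8; 239 and 200.2), lsm-1 (371; 189 and 202), lsm-3 (371; 157 and 203), lsm-8 (295; 142 and 144) and lsm-6 (267; 153 and 123). The lsm-1 summit was shared with rps-9, for a ribosomal protein, which was nearer to it (237 bp against 351 bp). In lsm-3 the highest summit lay in an intron, 120 bp upstream of an inner annotated 5′ end. This summit, at 13388856, was nearer the 3′ end of the gene (13387203 to 13389143, plus strand of chromosome IV). The other lsm-3 summits (146 and 102) lay 150 bp and 79 bp downstream of 5′ ends. At lsm-5 the replicates were far apart for this family, 93.95 in replicate 1 and 53.7 in replicate 2, and the peak was in replicate 1's list only. Its summit lay 442 bp upstream. lsm-4 had its nearest summit 48700 bp away and no promoter candidate in any of the ranked lists. LSm2, which goes by the symbol gut-2 and so is outside the 45, had a weak peak (149) with a summit 10 bp upstream, in a window shared with eea-1.

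SR proteins carry RNA recognition motifs and arginine-serine repeats. The highest peak among them was at rsp-3, the worm counterpart of SF2/ASF, with a value of 1322 (729.6 and 593) and its summit 295 bp upstream and 101 bp upstream of the transporter-like gene spin-4. A single summit lay between the divergent genes rsp-1 and rsp-2, 167 bp upstream of rsp-1 and 240 bp upstream of rsp-2, with a value of 989.9 (509 and 492). The unshared peak of rsp-6 stood at 794 (426 and 356). A second family pair, rsp-5 and the D1 gene snr-3, also shared 1 summit, 171 bp and 233 bp upstream of each (396; 232 and 156). The remaining SR peak was at rsp-7 (480.2; 241 and 222), shared with snu-13, itself a snRNP protein gene. All 6 SR genes with a summit were in both replicates' lists, and their median signal value, 892, was above those of the Sm and LSm (371), PRP (412) and other (284) classes; no test was made, and rsp-1 and rsp-2 count the same peak. rsp-4, the worm counterpart of SC35, had its nearest summit 1298 bp away. rsp-8 had a summit 353 bp downstream of its nearest 5′ end, beyond the promoter window, with a value of 115.

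Among the PRP genes 7 had no promoter summit, and the highest peaks of the other 6 ranged from 217 to 2302. The highest was at prp-40, whose yeast counterpart belongs to the U1 snRNP, with a value of 2302 (1183 and 1114). Its summit lay 169 bp upstream of prp-40 and 446 bp upstream of clu-1. An inner 5′ end of prp-40 had a second, low summit (168; 106 and 78.2), which also lay in the window of mrps-23. prp-18, for a factor of the second splicing step in yeast, had 1884 (990.0 and 887), with its summit 72 bp upstream and 115 bp from mccc-1. prp-8, the scaffold protein at the heart of the U5 snRNP, had 519 (250.5 and 282) with a summit 343 bp upstream that was in no other gene's window.

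Lower values were found at the other PRP genes with a summit. For the U4/U6 proteins they were 305 at prp-4 (148 and 146) and 217 at prp-31 (123 and 91.2), where the summits also lay in the windows of dhfr-1 and of mat-1. For prp-21, the worm counterpart of SF3A1 of the U2 snRNP, the highest value was 263 (144 and 111). A second prp-21 summit (118) took the same replicate 2 peak, so both summits cannot be told apart in that replicate. The summits of prp-21 also lay in the window of gldi-1.

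Members of the last class sit in U1, U2 and U5 snRNPs or at the 3′ end of the intron. snrp-40.1, for the U5 40 kDa protein, had 1416 (769.8 and 656), with its summit inside the gene's own UTR, 32 bp downstream of the 5′ end. Its paralogue snrp-40.2 had its nearest summit 7731 bp away. snrp-3, annotated as the U1 C protein, had 607 (307 and 301), and sap-140, annotated as a U2-associated protein, had 428 (217 and 204). The U5 helicase gene snrp-200 had 284 (146 and 135), with a summit in its own coding exon, 142 bp downstream. snrp-27, a tri-snRNP protein gene, had 203 (109 and 100.1).

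The U2AF genes, which recognise the 3′ splice site, had weak peaks close to their 5′ ends. uaf-1 (the large subunit) had 144 (54.4 and 92.6) at 50 bp upstream, and uaf-2 (the small subunit) had 125 (54.9 and 75.5) at 46 bp upstream. Both were in replicate 2's list only, and in both the value was lower in replicate 1. sfa-1, for the branch-point binding protein SF1, and sap-49, for an SF3B subunit, had no promoter summit.

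Between replicates the values at the family's peaks were close. The conservative list keeps only peaks above a repeatability threshold. Some closeness was thus set in advance, here and over all nuclear peaks. The log2 ratio of replicate 1 over replicate 2 had a median of 0.12 and an SD of 0.35 over the 33 summits, against a median of 0.04 and an SD of 0.40 over 5342 nuclear peaks that had values from each replicate. Replicate 1 was higher at 24 summits and replicate 2 at 9. The share of all nuclear peaks that were higher in replicate 1 was not counted, so this only describes the 33 summits. The ratio was more than 1 SD from the median, both taken over all nuclear peaks, at 6 summits. These were lsm-5 (0.81), rsp-5 and snr-3 (0.57), lsm-3 (-0.37), uaf-2 (-0.46), uaf-1 (-0.77) and the second summit of prp-21 (-0.91). The last ratio uses a replicate 2 peak that was also matched to the other prp-21 summit. Peaks this far from the median were not counted over the whole list. The summits of the highest peak of each gene lay a median of 6 bp apart in the replicates' own lists, and at most 46 bp. Over all genes with a promoter summit these values were 11 bp and 355 bp. Of the 31 genes, 27 (87.1%) had their highest peak in both replicates' thresholded lists, against 79.0% of all genes with a promoter summit, and 3 in only 1 list. With 2 replicates of 1 group there is no test between samples.

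**Figure D2:**
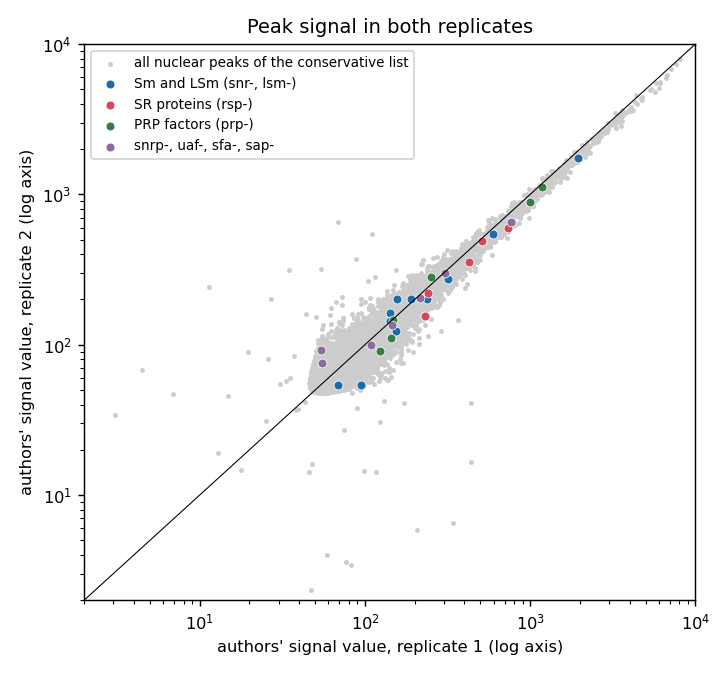
Authors' signal value in replicate 1 against replicate 2 (both log axes) for all nuclear peaks of the conservative list with a value in both (grey) and for the highest promoter peak of each splicing gene (coloured by class); the line marks equal values. The splicing genes lie along the line, from 54.4 to 1945 in replicate 1. All peaks shown had passed the repeatability threshold of that list.

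Sm and LSm genes had their summits farthest from the 5′ end, as a description of few genes with no test. Over the highest summit of each gene, the median was 311.5 bp upstream for Sm and LSm genes, 212.5 bp for SR genes, 203.5 bp for PRP genes and 50 bp for the others. Over all genes with a promoter summit it was 166 bp. Of the 12 Sm and LSm genes with a summit, 10 (83.3%) had it more than 200 bp upstream. Among all genes with a promoter summit the share was 41.8%. At snr-1, snr-2, snr-3, snr-7, lsm-1 and lsm-7 the summit lay nearer to the 5′ end of a gene on the opposite strand. The genes with a summit within 200 bp were lsm-3, at 120 bp from an inner 5′ end, and lsm-6, at 113 bp. At the other end, snrp-40.1 and snrp-200 were the only genes with their highest summit downstream of the 5′ end. Annotated 5′ ends of trans-spliced mRNAs are where the leader was joined, so these distances are not measured from the start of transcription. Nearest the upstream edge inside the window were lsm-8 (480 bp) and lsm-5 (442 bp), and nearest the downstream edge were snrp-200 (142 bp) and a lower summit of lsm-3 (150 bp). Just outside it were prp-19 (632 bp upstream), prp-17 (737 bp upstream) and rsp-8.

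**Figure D3:**
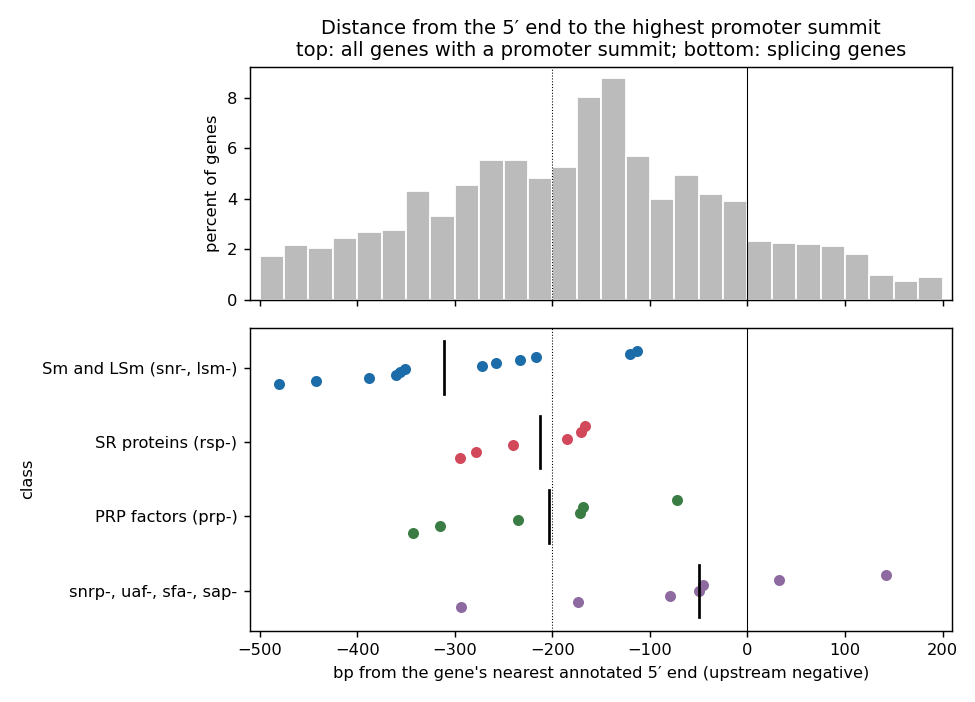
Distance in bp from the nearest annotated 5′ end to the highest promoter summit; the histogram gives the percent of all protein-coding genes with a promoter summit in 25 bp bins, and points give the splicing genes by class, spread vertically so that they do not overlap, with a black bar at the class median. Sm and LSm genes centre at 311.5 bp upstream, and the class of snrp-, uaf- and sap- genes at 50 bp; the dotted line is 200 bp upstream.

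The order of the classes therefore depended on how a summit was assigned. In a window from 200 bp upstream to 100 bp downstream, 14 of the 45 genes (31.1%) had a summit, against 8.08% of all genes. There the Sm and LSm genes had 2 of 14, SR genes 3 of 8, PRP genes 4 of 13 and the others 5 of 10. When each summit was given only to the gene with the nearest 5′ end, 23 of 45 had one (all genes, 11.9%), and the Sm and LSm genes fell to 6 of 14 while PRP genes stayed at 6 of 13. The genes that lost their summit in this way were snr-1, snr-2, snr-3, snr-7, lsm-1 and lsm-7 among Sm and LSm genes and rsp-2 and rsp-3 among SR genes.

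Other choices moved the total less. From 1000 bp upstream to 500 bp downstream 34 genes had a summit (all genes, 18.1%), with prp-17, prp-19 and rsp-8 added. With only the outermost 5′ end of each gene 30 did (all genes, 13.6%), without lsm-3. The authors' other thresholded series list also gave 30 (all genes, 14.7%), without lsm-5 and snr-7 and with sap-49 added. Among the conservative peaks above the median value 26 genes had one (all genes, 9.87%), and among peaks in both replicates' lists 27 did (all genes, 11.6%). Replicate 1's own list gave 27 (all genes, 13.2%) and replicate 2's 29 (all genes, 13.1%). All 6 SR and all 6 PRP genes with a summit in the conservative list also had one in each of these last 4 sets.

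**Figure D4:**
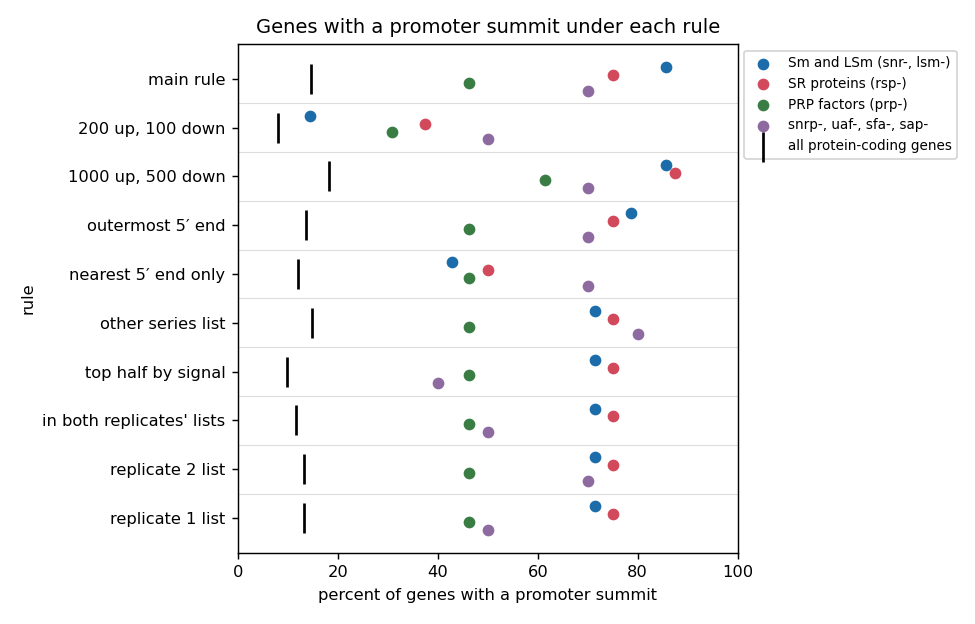
Percent of genes with a promoter summit under the main rule and 9 other rules, by class (coloured points) and over all protein-coding genes (black bars). Sm and LSm genes stand at 85.7% under the main rule and at 14.3% in the narrow window, where all genes are at 8.08%.

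By chromosome, 6 of 8 family genes had a promoter summit on I, 8 of 12 on II, 6 of 10 on III, 8 of 9 on IV, 2 of 5 on V and the only one on X. Over all genes the shares were 24.8%, 14.2%, 23%, 15.7%, 8.77% and 5.42% in the same order.

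Shared summits were common. Of the 31 genes, 17 (54.8%) had their highest summit in the promoter window of another protein-coding gene too. Over all genes with a promoter summit the share was 38.2%. In all 17 cases a gene on the opposite strand was among those that shared it, which was not counted over all genes. By class, 6 of 12 Sm and LSm, 5 of 6 SR, 5 of 6 PRP and 1 of 7 other genes had a shared highest summit. The partners included genes of translation (rps-9), the cell cycle (mat-1, an anaphase-promoting complex subunit) and metabolism (dhfr-1, dihydrofolate reductase), besides the family's own pairs. Highest summits fell between genes at 27 of the 31 genes, in a UTR at 2, in an intron at 1 and in a coding exon at 1. These counts were not made over all genes. Most of the window lies upstream of the 5′ end, so they only describe where these summits lay. One of the UTR summits, that of lsm-8, lay within sqd-1, the gene upstream of it.

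The 14 genes without a promoter summit were lsm-4, snr-5, rsp-4, rsp-8, prp-3, prp-6, prp-9, prp-17, prp-19, prp-38, prp-39, sap-49, sfa-1 and snrp-40.2. Of these, 6 (42.9%) lay within 500 bp downstream of the end of another protein-coding gene on the same strand, the arrangement found in operons, against 17.0% of all genes without a promoter summit. Among the 31 with a summit it was 8 (25.8%), against 24.4% of all genes with one. Operons themselves were not annotated in the files used here. For 5 of the 6, the first gene of the run had a promoter summit, against 21.0% over all such genes. prp-38 lay 107 bp behind plrg-1, whose product is itself a spliceosome protein and whose summit had a value of 1543. prp-39 lay 91 bp behind hmgs-1, for HMG-CoA synthase (844, a summit shared with F25B4.4), and prp-3 lay 345 bp behind smrd-1 (1022). sfa-1 was the third gene of a run that begins with uaf-2 and continues with cyn-13, so the SF1 gene stands downstream of the weak U2AF summit (125). snrp-40.2 was the fifth of a run that begins with suco-1 (552). sap-49 lay behind arp-6, which had no summit.

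For the remaining genes without one, the nearest summits stood elsewhere. The summit 632 bp upstream of prp-19, for the ubiquitin ligase of the Prp19 complex, was strong (6895) and lay in the promoter window of K10D2.5. That 737 bp upstream of prp-17 (358) was in no gene's window. Promoter candidates with a score below 830 were present in the ranked series lists at snr-5, rsp-4, rsp-8, prp-3, prp-6, prp-38, prp-39 and sfa-1, with signal values from 26.5 at rsp-4 to 99.5 at prp-38. The candidate at sap-49 (84.1) had a score of 920, and it is in the authors' other thresholded list. The ranked series lists held no promoter candidate for lsm-4, prp-9, prp-17, prp-19 or snrp-40.2, although replicate 2's own ranked list had weak ones at prp-19 (29.0) and snrp-40.2 (22.4).

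The family's summits were close to those of other genes in GC content. Pattern counts at 33 summits are small, so their shares stand side by side without a test. The 100 bp around the 33 summits had a median GC content of 46%, against 45.0% at all 2538 promoter summits and 33.0% in 100 bp windows centred 150 bp upstream of all protein-coding genes. GCGCG was in 14 of the 33 (42.4%), 34.7% of all promoter summits and 6.10% of those windows. At or above the median value of promoter peaks, 283, it was in 11 of 21 family summits (52.4%) and in 46.3% of the promoter summits of other genes. Below it the shares were 3 of 12 (25%) and 22.9%.

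Other patterns were at few family summits. CTGCGTCT, at prp-18 and rsp-7, was in 2 of 33 (6.06%) and 7.25% of all promoter summits, and in 1.48% of the windows upstream of all genes. TTTGAA, the core of the cell-cycle homology element of DREAM targets, was in 8 (24.2%) and 22.5%, and in 29.4% of the upstream windows. TTTCAG, the consensus of the worm 3′ splice site, also the acceptor of trans-splicing, was in 7 (21.2%) against 10.2% and 15%, and AATAAA, the polyadenylation signal, in 8 (24.2%) against 19.2% and 29.1%. TATAAA and CCAAT were each in 3 (9.09%), against 5.87% and 17.0% of promoter summits, and GAGAGA and CCGCCC in 2 each (6.06%), against 15% and 5.99%. TTTTTTTT was in 4 (12.1%, against 6.46%) and CACGTG in 1 (3.03%, against 3.31%), at snrp-3. With counts this small, 1 summit is 3.03% of the total. In 200 bp windows the differences at TTTCAG (33.3% against 27.9% of all promoter summits) and CCAAT (30.3% against 29.9%) were smaller. Those at AATAAA (63.6% against 45.9%) and TTTGAA (48.5% against 42.7%) were larger. A match is a string of letters and not a shown binding site.

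Spliceosome genes with other names were set beside the family. Of 54 such genes in a fixed list, 33 (61.1%) had a promoter summit, against 14.6% of all protein-coding genes, with a median signal value of 465. The highest were mog-4, for a DEAH-box helicase of splicing (3856; 2036 and 1840), and smu-2, for a spliceosome protein (3235; 1699 and 1535). Also among the 5 highest were tiar-2 (1895; 1046 and 836) and rnp-2 (1388; 715 and 683), both for RNA-binding proteins. Helicases had summits at 7 of 8, with hel-1 the exception, and genes of snRNP assembly at 5 of 5, among them smn-1 (804). Other proteins of the spliceosomal complexes had them at 9 of 15, SF3 and U5 proteins at 3 of 5 and U1 and U2 proteins at 1 of 3. Regulators of alternative splicing had them at 8 of 18. The 10 without were asd-1, asd-2, etr-1, exc-7, fox-1, mbl-1, mec-8, ptb-1, sup-12 and unc-75.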

How the data were processed

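LIN-38 ChIP-seq peak lists of 2 replicates were used. The authors' deposited lists give a peak's interval, summit offset, a score (the scaled IDR) and a signal value of unstated scaling, on ce11 per the labels. Lists were made per replicate and from both replicates. Aligner and peak caller are not given in the sources used. The 26 mitochondrial peaks were left out. Gene symbols, classes, 5′ ends and strands came from Ensembl release 115 (WBcel235), protein names from RefSeq and sequence from its WBcel235 genome, the same assembly. A replicate's value is that of the peak in its own ranked list which overlaps by at least 1 bp and has the nearest summit. Coordinates count from 1. Every member is named; among the other spliceosome genes the 5 with the highest values were chosen, and 1 of them is not reported here. gemn-2 of that list could not be matched, and gut-2 stands under snRNP assembly in it. Members, lists and patterns were chosen with earlier results of these data known, and all 45 members are accounted for. No test was run: 1 group of 2 replicates allows none. Window assignment was tested on simulated data. Scripts ran in Python 3.11.15 with pandas 2.3.3.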

Additional observations from a re-analysis of the deposited data

How the results depend on the processing

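Counts were recomputed for 9 other rules. The narrow window moved the count of all members from 31 to 14, that of Sm and LSm genes from 12 to 2, that of SR genes from 6 to 3 and that of genes with a shared summit from 17 to 2, the last by construction since fewer windows overlap. With each summit given to the nearest 5′ end Sm and LSm genes had 6. Among peaks above the median value the other class had 4 in place of 7. The median signal value of member peaks, 396, was 370.6 with nearest-end assignment and 202 to 232 in single replicates, whose values are on the scale of 1 library. The other gene counts stayed within 1.5 times of the main ones. In 200 bp sequence windows, longer by construction, TTTGAA was at 16 member summits (48.5%, against 42.7% of all promoter summits), GAGAGA at 6 (18.2%, 23.3%), TATAAA at 6 (18.2%, 16.7%), CCAAT at 10 (30.3%, 29.9%), TTTCAG at 11 (33.3%, 27.9%) and AATAAA at 21 (63.6%, 45.9%). No paired analysis was possible because there is 1 group. GCNCCACCG, a pattern read off the printed sequences after seeing them, was in 3 of 33 member summits (9.09%) in 100 bp windows. In 200 bp windows it was in 4 (12.1%). Its shares of all promoter summits were 2.68% and 2.84% in the same order. The 3 at 100 bp (prp-40, snrp-40.1 and rsp-3) are sequences it was read from, and no other member summit had it at that width. Nothing is drawn from these counts. Without read counts, no interval can be given for a signal value.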
